A study of Homo sapiens with 6 samples.

Results

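The transforming growth factor beta (TGF-beta) pathway was followed in 786-O renal cancer cells with and without knockdown of YB1, through 10 of the 20030 genes listed in the deposited table. The 10 genes were taken by name, with no threshold on their values but with earlier results of these data known: 3 ligands (TGFB1, TGFB2 and INHBA), 3 receptors (TGFBR1, TGFBR2 and TGFBR3), the signal-carrying SMADs (SMAD2, SMAD3 and SMAD4) and the inhibitory SMAD7. All 10 reached a mean of at least 1 FPKM (fragments per kilobase of transcript, adjusted for the size of each library), the level required for testing, and so belonged to the 10439 genes tested.

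786-O is an established human line from a clear cell renal cell carcinoma (ccRCC) that lacks functional VHL, and YB1, the protein of the YBX1 gene, is a Y-box protein that binds DNA and RNA. The 3 vector libraries came from cells carrying a lentiviral vector with a nonsense small hairpin RNA (shRNA). The 3 shYB1 libraries came from cells carrying the same kind of vector with an shRNA against YB1. Both lines were selected with puromycin, kept as stable cultures and used at passages 16 to 18, and the labels name no further treatment. The series text speaks of several shRNAs whereas the labels give a single shYB1 group, so that effects shared by YB1 shRNAs and effects of the shRNA used cannot be told apart. The labels number the replicates 1 to 3 in each group but do not say that they were separate cultures, and the p-values then measure only the spread between these libraries, which may be technical.

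TGF-beta ligands are secreted in a latent form and, once released, bind the type II receptor TGFBR2, which recruits and phosphorylates the type I receptor TGFBR1. The activated type I receptor phosphorylates SMAD2 and SMAD3, which join SMAD4 and move to the nucleus to regulate target genes. SMAD7 is induced by the pathway and blocks the type I receptor, and activins, built from subunits such as the INHBA product, signal through other receptors to the same SMADs. In epithelial cells and carcinomas the pathway is known for growth arrest, for production of extracellular matrix and for epithelial–mesenchymal transition.

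The windows around the annotated transcription starts of the members are shown because Y-box proteins were named for a DNA element, the Y-box, whose core is CCAAT, and because SMAD complexes bind DNA at elements with the core CAGAC. Each window holds 300 bases, 250 before the first base of the transcript and 50 from it on, read 5′ to 3′ on the gene's own strand, from RefSeq on GRCh38.p14. All 10 members had a window, and for genes with several the first listed was used. Capitals mark CCAAT and CAGAC on either strand, so that ATTGG and GTCTG are the same motifs on the other strand, and the motifs did not overlap each other. The windows printed are those of TGFB2 (chr1:218345086-218345385, plus strand), INHBA (chr7:41703041-41703340, minus strand), SMAD3 (chr15:67065352-67065651, plus strand) and SMAD7 (chr18:48950916-48951215, minus strand), whose mRNA levels differed between the groups, and of TGFBR1 (chr9:99104863-99105162, plus strand), whose level did not pass the test.
TGFB2: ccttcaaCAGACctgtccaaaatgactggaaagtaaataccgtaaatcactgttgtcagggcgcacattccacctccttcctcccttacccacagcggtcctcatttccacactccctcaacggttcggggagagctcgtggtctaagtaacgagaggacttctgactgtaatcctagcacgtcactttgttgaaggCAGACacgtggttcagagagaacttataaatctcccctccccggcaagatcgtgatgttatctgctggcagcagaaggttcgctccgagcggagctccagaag
INHBA: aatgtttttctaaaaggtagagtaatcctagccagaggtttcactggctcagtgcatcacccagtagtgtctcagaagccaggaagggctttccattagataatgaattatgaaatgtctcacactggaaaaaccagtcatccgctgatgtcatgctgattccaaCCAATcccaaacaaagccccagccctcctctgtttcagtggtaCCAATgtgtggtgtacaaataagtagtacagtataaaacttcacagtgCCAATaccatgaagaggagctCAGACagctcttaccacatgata
SMAD3: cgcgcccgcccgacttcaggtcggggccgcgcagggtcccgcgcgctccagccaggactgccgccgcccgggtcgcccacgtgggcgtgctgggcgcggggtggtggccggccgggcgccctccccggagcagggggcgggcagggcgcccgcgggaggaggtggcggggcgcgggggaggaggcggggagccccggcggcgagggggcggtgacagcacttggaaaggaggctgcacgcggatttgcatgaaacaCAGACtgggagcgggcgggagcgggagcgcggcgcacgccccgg
SMAD7: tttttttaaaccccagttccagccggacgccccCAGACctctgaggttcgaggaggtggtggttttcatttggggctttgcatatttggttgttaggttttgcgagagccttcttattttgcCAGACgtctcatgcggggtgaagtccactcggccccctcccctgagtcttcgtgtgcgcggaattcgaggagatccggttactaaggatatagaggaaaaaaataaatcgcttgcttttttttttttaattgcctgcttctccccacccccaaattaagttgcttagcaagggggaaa
TGFBR1: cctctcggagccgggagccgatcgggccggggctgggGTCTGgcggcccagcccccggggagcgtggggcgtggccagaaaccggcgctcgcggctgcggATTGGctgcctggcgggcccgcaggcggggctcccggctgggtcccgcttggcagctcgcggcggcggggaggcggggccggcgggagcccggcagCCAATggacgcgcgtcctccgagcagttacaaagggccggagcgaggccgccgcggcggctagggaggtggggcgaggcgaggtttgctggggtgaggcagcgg

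The Y-box core was present in the first listed windows of 5 of the 10 members and in 34.6% of 35116 windows of the same length. The latter include every window of a gene with several. INHBA held 3 copies, starting at bases -85, -42 and 6 counted from the start site, and TGFBR1 held 2, at -150 on the other strand and at -54. TGFBR2, SMAD2 and SMAD4 held 1 copy each, at -165, -74 and -234. The SMAD core CAGAC was also present in 5 of the 10 members, against 45.3% of all windows. TGFB2 had it at -243 and -53, SMAD7 at -217 and -128, SMAD3 at 6, INHBA at 27 and TGFBR1 at -213 on the other strand. The palindrome GTCTAGAC was found in 0 of the 10 windows, against 0.202% of all windows. So rare a motif would seldom appear among 10 windows, and only the first listed window of each gene was counted. TGFB1 and TGFBR3 held neither core, which says only that these letters are not in the windows read.

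The knockdown was visible in the targeted gene. YBX1 was at 367, 373 and 378 FPKM in vector, against 167, 166 and 173 FPKM in shYB1, and it fell by 1.14 on the log2 scale (SE 0.031, adjusted p = 1.53e-08, limma, Benjamini-Hochberg over the genes tested). FPKM totals over the listed genes were 282736 to 295887. FPKM carry no counts and leave the depth unknown, but the spacing of the lowest values gave relative depths of 0.979 to 1.10 times that of shYB1 replicate 1. Outside that library, each estimate rests on 25 to 148 genes, of 888 to 973 with low values, so that these depths are rough. Log expression correlated between libraries of a group with r = 0.995 to 0.996 and between groups with r = 0.991 to 0.992, a description across genes. All 5 renal carcinoma markers (PAX8, PAX2, VIM, KRT8 and KRT18) reached 1 FPKM, with sums of 1739 to 1829 FPKM in the vector and 1807 to 1844 FPKM in the shYB1 libraries. Of the markers of other cell types, 0 of 3 endothelial and 0 of 3 fibroblast genes reached 1 FPKM, with sums of at most 0.406 and 0.683 FPKM. Among the leukocyte markers, CD68 reached 1 FPKM, CD3E was listed at 0 in every library and the sum of the 3 genes was 24.7 to 25.4 FPKM in vector and 22.1 to 22.6 FPKM in shYB1 libraries. The part of these markers in the results was not tested.

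The members spanned a 28.9-fold range of expression per length. Averaged over the 6 libraries, TGFB1 was the most abundant at 46.9 FPKM, above 90.9% of the genes tested. SMAD3 followed at 39.6 FPKM, then TGFBR2 at 25.6, TGFB2 at 15.4, SMAD7 at 14.3, SMAD4 at 8.29, TGFBR1 at 4.01, SMAD2 at 2.79, TGFBR3 at 2.003 and INHBA at 1.62. This order held within each group, but neighbours overlapped in 2 places: TGFB2 and SMAD7 in the vector libraries, and TGFBR3 and INHBA in the shYB1 libraries. In FPKM, SMAD3 was the higher of the pair of receptor SMADs, and the type II receptor was higher than the type I receptor. FPKM depend on the length taken for each gene and do not give protein levels.

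**Figure D1:**
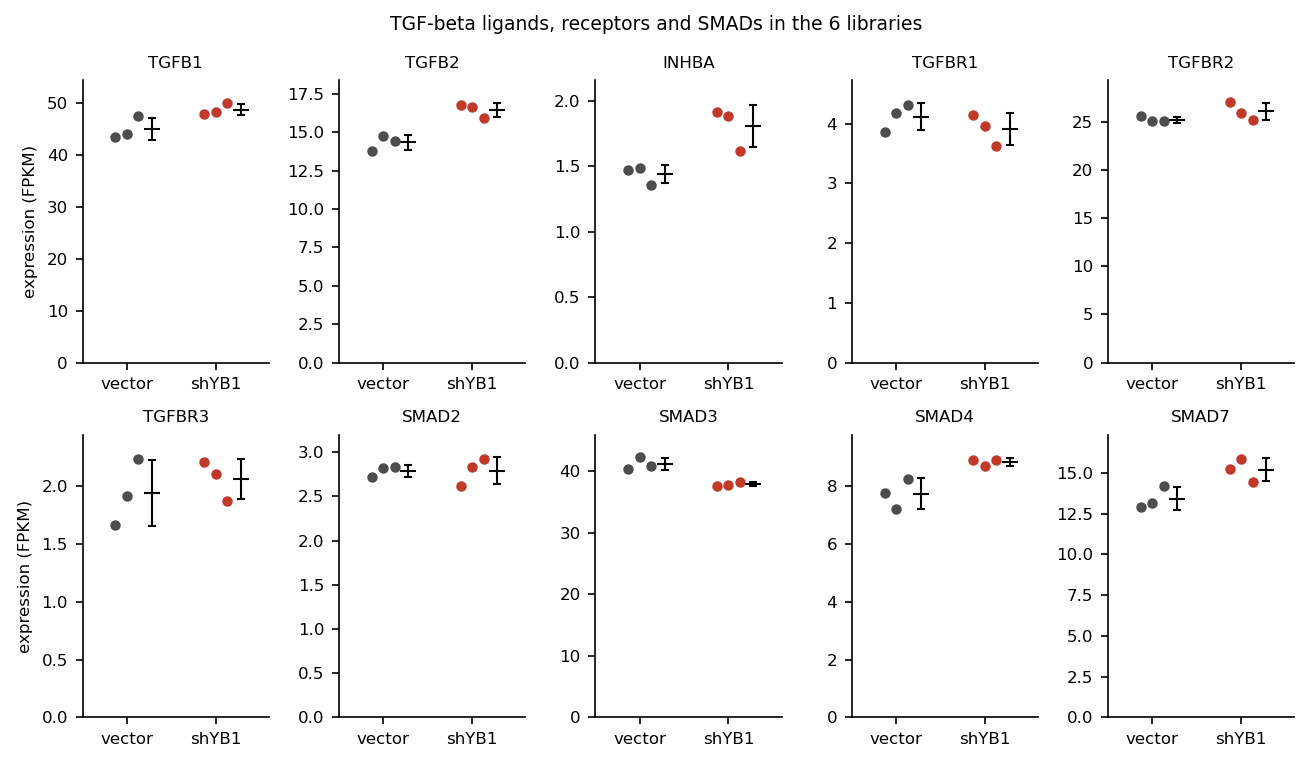
Expression of the 10 members in FPKM in the 3 vector (grey) and 3 shYB1 (red) libraries, with points in replicate order and the mean ± SD beside them; each axis starts at 0. The shYB1 points lie above all vector points for TGFB1, TGFB2, INHBA, SMAD4 and SMAD7, below them for SMAD3, and overlap them for the receptors and SMAD2.

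After knockdown, 4 of the 10 members rose (TGFB2, INHBA, SMAD4 and SMAD7) and 1 fell (SMAD3), by limma on log2(FPKM + 0.1) with Benjamini-Hochberg adjusted p under 0.05 over all genes tested. Of all genes tested, 18.7% rose and 6.93% fell, or 25.7% in either direction, so that calls were common in this comparison. FPKM are shares of the RNA of a bulk culture, in which fewer cells expressing a gene and less RNA per cell cannot be told apart. The groups did not overlap for 6 of the 10 members, 5 higher and 1 lower in shYB1, against 30.1% and 12.5% of all genes tested (42.6% in either direction). The changes were small: the members' log2 fold changes lay between -0.12 and 0.31 with a median of 0.10, against 0.055 for all genes tested. None of the 10 reached a fold change of 2 with an unadjusted p under 0.05, which 0.22% of all genes did. An unadjusted p under 0.05 with limma was found for 6 of the 10, beside 4073 of the 10439 genes tested. Median-of-ratios scaling, which sets libraries to a common median ratio, moved the median of all genes from 0.055 to 0.00099 and the share of calls that were higher from 73.0% to 48.8%. Under it, 1 member rose (TGFB2) and 1 fell (SMAD3), beside 11.4% and 12.0% of all genes tested (23.4% in either direction).

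TGFB2, the TGF-beta isoform that needs the co-receptor TGFBR3 for strong binding to TGFBR2, was the member with the smallest adjusted p. Its levels were 13.8, 14.8 and 14.4 FPKM in vector, against 16.7, 16.6 and 15.9 FPKM in shYB1. Every shYB1 library lay above every vector library. The means were 14.3 ± 0.495 and 16.4 ± 0.461 FPKM (SD, n = 3 each), a log2 fold change of 0.20 (SE 0.045, adjusted p = 0.0109 by limma with Benjamini-Hochberg adjustment). The call was kept under all 15 alternative settings, with adjusted p from 0.00740 to 0.0474, and the log2 fold change was 0.14 under median-of-ratios scaling. The gene lies at chr1:218346235-218444619 (GRCh38, GENCODE 29) on the plus strand, and 25.4% of its 50-base words also occur in TGFB2-OT1, a same-strand transcript that overlaps its exons, so that reads from the pair cannot be fully separated.

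TGFB1, the isoform with the highest FPKM in these cells, is secreted as a latent complex. It stood at 43.5, 44.1 and 47.5 FPKM in vector, against 48.0, 48.2 and 50.1 FPKM in shYB1. The groups were again separate, although vector replicate 3 came within 1 FPKM of the lowest shYB1 library. The means of 45.0 ± 2.12 and 48.7 ± 1.14 FPKM gave a log2 fold change of 0.11 with a 95% confidence interval of 0.024 to 0.21, which did not pass the test (adjusted p = 0.0628, limma with Benjamini-Hochberg adjustment). Without vector replicate 3 the adjusted p was 0.0144, and under median-of-ratios scaling it was 0.263 with a log2 fold change of 0.060. TGFB1 (chr19:41301587-41353911, minus strand) shares 6.64% of its exon bases with HNRNPUL1 on the opposite strand, and the strandedness of the libraries is not given in the sources used here.

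INHBA, which encodes the beta A subunit of activin A, was the least abundant member and had the largest log2 fold change among the 10. Its levels were 1.47, 1.48 and 1.36 FPKM in vector and 1.92, 1.88 and 1.62 FPKM in shYB1 libraries. All shYB1 values were higher, with shYB1 replicate 3 closest to the vector range. The means were 1.44 ± 0.0682 and 1.80 ± 0.162 FPKM, and the log2 fold change was 0.31 (SE 0.096, adjusted p = 0.0403 by limma with Benjamini-Hochberg adjustment). The call was kept without shYB1 replicate 3 (adjusted p 0.0289 by limma) and lost without each other library. The adjusted p was 0.0776, 0.0660 and 0.104 without vector replicates 1, 2 and 3, and 0.128 and 0.123 without shYB1 replicates 1 and 2. In these fits of fewer libraries the log2 fold change was 0.26 to 0.38. Median-of-ratios scaling gave a log2 fold change of 0.25 (adjusted p 0.0867). INHBA lies at chr7:41667168-41705834 on the minus strand.

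Of the 3 receptors, 0 passed the test by limma, and 0 had an unadjusted p under 0.05, beside 2679 and 4073 of the 10439 genes tested. TGFBR1, the type I receptor kinase (chr9:99104038-99154192, plus strand), was at 3.87, 4.18 and 4.30 FPKM in vector and 4.15, 3.96 and 3.63 FPKM in shYB1 libraries. The groups overlapped, and the log2 fold change of -0.073 had a 95% confidence interval of -0.24 to 0.090 (adjusted p = 0.502, limma with Benjamini-Hochberg adjustment). The value ranged from -0.12 without vector replicate 1 to -0.021 without shYB1 replicate 3, and it was -0.13 under median-of-ratios scaling. TGFBR2, the type II receptor kinase (chr3:30606502-30694142, plus strand), was at 25.6, 25.1 and 25.0 FPKM in vector and 27.1, 25.9 and 25.2 FPKM in shYB1 libraries. Here shYB1 replicate 3 lay inside the vector range, and the log2 fold change of 0.047 had an interval of -0.041 to 0.13 (adjusted p = 0.421, limma with Benjamini-Hochberg adjustment). Its sign turned under median-of-ratios scaling (-0.0085) and quantile normalization (-0.013). The interval of TGFBR2 was the narrower of these, and a change above 0.13 or below -0.041 lies outside it.

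TGFBR3, or betaglycan (chr1:91680343-91906335, minus strand), is the co-receptor that presents TGFB2 to the signalling receptors. It was at 1.67, 1.92 and 2.24 FPKM in vector and 2.21, 2.10 and 1.88 FPKM in shYB1 libraries. Vector replicate 1 was the lowest and vector replicate 3 the highest of all 6 libraries, and the vector group had the widest spread among the members, with a coefficient of variation of 14.7%. The log2 fold change of 0.092 had a 95% confidence interval of -0.16 to 0.34 (adjusted p = 0.584, limma with Benjamini-Hochberg adjustment) and became -0.0062 without vector replicate 1.

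SMAD3, the receptor SMAD that binds CAGAC elements directly, was the only member that fell. It was at 40.4, 42.3 and 40.8 FPKM in vector, against 37.7, 37.8 and 38.3 FPKM in shYB1. The groups did not overlap, and the shYB1 libraries lay within 1 FPKM of each other. The means of 41.2 ± 1.02 and 37.9 ± 0.343 FPKM gave a log2 fold change of -0.12 (SE 0.034, adjusted p = 0.0307 by limma with Benjamini-Hochberg adjustment). Median-of-ratios scaling gave -0.17 (adjusted p 0.00458). With 1 library left out, the call held without vector replicates 1 and 3 (adjusted p 0.0472 and 0.0415) and was lost without vector replicate 2 (0.0994) and without shYB1 replicates 1, 2 and 3 (0.0907, 0.0880 and 0.0550). SMAD3 lies at chr15:67063763-67195195 on the plus strand.

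SMAD2, the other receptor SMAD (chr18:47808957-47931146, minus strand), was at 2.71, 2.82 and 2.83 FPKM in vector and 2.62, 2.83 and 2.92 FPKM in shYB1 libraries. The shYB1 libraries lay on both sides of the vector range. The means of 2.79 ± 0.0639 and 2.79 ± 0.154 FPKM gave a log2 fold change of -0.00040 with a 95% confidence interval of -0.16 to 0.16 (adjusted p = 0.998, limma with Benjamini-Hochberg adjustment). SMAD2 and SMAD3 transmit the same receptor signal, but the interval of SMAD2 included the log2 fold change of SMAD3, and a difference between their changes was tested only as the ratio of the pair within libraries.

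SMAD4, the shared partner of the receptor SMADs (chr18:51028394-51085045, plus strand), was at 7.78, 7.19 and 8.24 FPKM in vector and 8.91, 8.68 and 8.91 FPKM in shYB1 libraries. All shYB1 libraries were above all vector libraries, and the vector libraries had the larger spread. The means of 7.74 ± 0.526 and 8.83 ± 0.129 FPKM gave a log2 fold change of 0.19 (SE 0.058, adjusted p = 0.0353 by limma with Benjamini-Hochberg adjustment). The call held without vector replicate 3 (adjusted p 0.0180) and was lost without vector replicates 1 and 2 (0.0770 and 0.108) and without shYB1 replicates 1, 2 and 3 (0.0931, 0.0711 and 0.0830). Median-of-ratios scaling gave a log2 fold change of 0.14 (adjusted p 0.112). A readthrough transcript, AC091551.1, holds 5.84% of the 50-base words of SMAD4.

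SMAD7, the inhibitory SMAD (chr18:48919853-48952052, minus strand), was at 12.9, 13.2 and 14.2 FPKM in vector and 15.3, 15.9 and 14.4 FPKM in shYB1 libraries. The groups were separate, with vector replicate 3 and shYB1 replicate 3 close to each other. The means of 13.4 ± 0.696 and 15.2 ± 0.711 FPKM gave a log2 fold change of 0.18 (SE 0.053, adjusted p = 0.0346 by limma with Benjamini-Hochberg adjustment). The call held without either of these libraries (adjusted p 0.0178 without vector replicate 3 and 0.0296 without shYB1 replicate 3). It was lost without vector replicates 1 and 2 (0.115 and 0.0916) and without shYB1 replicates 1 and 2 (0.0891 and 0.123). Median-of-ratios scaling gave a log2 fold change of 0.12 (adjusted p 0.106).

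**Figure D2:**
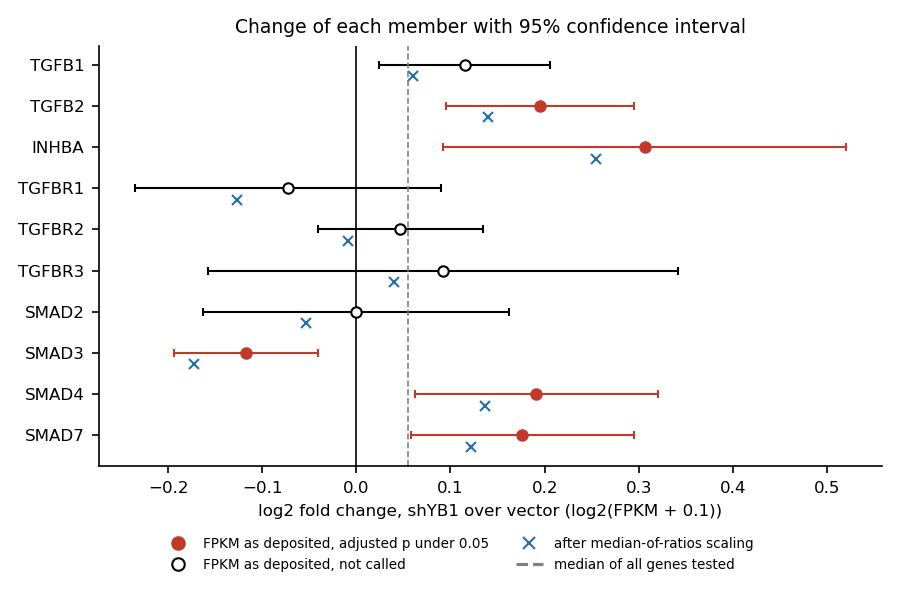
Log2 fold change of each member, shYB1 over vector, on log2(FPKM + 0.1), with 95% confidence intervals from limma; filled red points have an adjusted p under 0.05, crosses give the value after median-of-ratios scaling, and the dashed line marks the median of all genes tested at 0.055. All 10 crosses lie left of their points, and the intervals of TGFBR1, TGFBR2, TGFBR3 and SMAD2 include 0.

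Of the 5 members that passed the test, INHBA and SMAD4 had a CCAAT core in its window, and of the 5 that did not, TGFBR1, TGFBR2 and SMAD2 had it. SMAD3, which fell, had no CCAAT core in its first listed window, which held a CAGAC core at base 6. Of its 5 windows, another (chr15:67125492-67125791) held 1 Y-box core.

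Ratios within a library do not depend on the scaling between libraries, and 5 were compared with two-sided exact permutation tests, which cannot give a p below 0.1 with 3 libraries against 3. The ratio of SMAD7 to SMAD3, the inhibitory SMAD over the receptor SMAD with the higher FPKM, was 0.319, 0.311 and 0.348 in vector. It was 0.405, 0.419 and 0.377 in shYB1 libraries. All shYB1 ratios were higher, and the mean went from 0.326 ± 0.0195 to 0.400 ± 0.0215, a log2 difference of 0.30 (SE 0.067, exact p = 0.1, adjusted over the 5 ratios 0.25). The ratio of SMAD3 to SMAD2 was 14.9, 15.0 and 14.4 in vector and 14.4, 13.4 and 13.1 in shYB1 libraries. These groups were separated only by a narrow gap, 14.43 against 14.38, and the log2 difference was -0.12 (SE 0.044, exact p = 0.1, adjusted 0.25).

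The 3 other ratios overlapped between the groups. TGFB2 to TGFB1, the balance of the ligand isoforms, was 0.319 ± 0.0158 in vector and 0.337 ± 0.0171 in shYB1 (log2 difference 0.081, SE 0.059, exact p = 0.2). TGFBR2 to TGFBR1, the type II over the type I receptor, was 6.14 ± 0.421 and 6.67 ± 0.241 (0.12, SE 0.064, exact p = 0.3). TGFBR3 to TGFBR2, the co-receptor over the type II receptor, was 0.0770 ± 0.0121 and 0.0792 ± 0.00407 (0.050, SE 0.14, exact p = 0.8). A ratio of INHBA to FST, the gene of the activin antagonist follistatin, could not be formed because FST was listed at 0 in all 6 libraries.

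**Figure D3:**
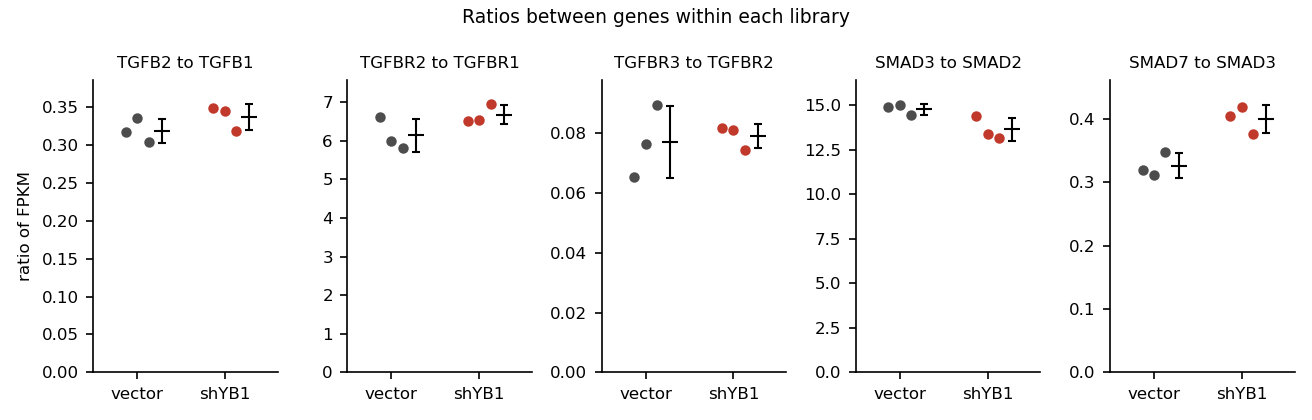
Ratio of FPKM between pairs of members within each library, for the 3 vector (grey) and 3 shYB1 (red) libraries in replicate order, with the mean ± SD beside them; each axis starts at 0. The SMAD7 to SMAD3 points of shYB1 (0.377 to 0.419) lie above those of vector (0.311 to 0.348), and the groups of the first 3 ratios overlap.

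The rest of the pathway was read from 9 lists by role, 110 genes beside the members, of which 66 were tested and 44 lay below 1 FPKM on average. Of the 66, 18 rose and 11 fell by limma with Benjamini-Hochberg adjustment (18.7% and 6.93% of all genes tested), with a median log2 fold change of 0.069. Under median-of-ratios scaling 13 rose and 15 fell, beside 11.4% and 12.0% of all genes tested. Of the 29 genes called, 18 passed under every alternative setting. Of the 110 genes listed, 4 stand in 2 lists, and of those PMEPA1 and SKIL were called. Among the called genes named here, the adjusted p stayed under 0.05 in 3 of 15 alternatives for SMAD5, 5 of 14 for SKIL, 7 of 15 for BMPR2, 9 of 15 for CREBBP and SNAI1, 14 of 15 for ACVR1B, TGIF1 and TGFBI, and 11 of 14 for TNF.

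Among the other TGF-beta and activin ligands, 2 of 10 were tested. INHBB, the beta B subunit of activins, was at 11.4, 11.4 and 11.9 FPKM in vector and 16.9, 17.3 and 17.9 FPKM in shYB1 libraries. It lay above INHBA in every library and rose with a log2 fold change of 0.58 (SE 0.044, adjusted p = 1.84e-05, limma with Benjamini-Hochberg adjustment). TGFB3, the remaining TGF-beta isoform, was below the level required for testing, at 0.384 ± 0.105 and 0.238 ± 0.121 FPKM. Both antagonists tested of the 7 listed rose, as did 18.7% of all genes tested. FSTL3, a follistatin-like protein that binds activins, went from 31.2 ± 1.57 to 39.2 ± 2.31 FPKM, and NOG, the BMP antagonist noggin, from 39.9 ± 1.55 to 48.5 ± 1.45 FPKM. BMP2 was the only BMP ligand tested, at 4.24 and 4.64 FPKM, and it did not pass (adjusted p = 0.213, limma with Benjamini-Hochberg adjustment).

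Of the 7 tested genes of the latent complex and its activation, 0 passed by limma with adjustment, beside 25.7% of all genes tested. An unadjusted p under 0.05 was found for 3 of the 7, beside 4073 of the 10439 genes tested. LTBP3, a latent TGF-beta binding protein, was the highest of the 7 at 122 and 117 FPKM. Under median-of-ratios scaling 0 rose and 2 fell in this list, LTBP3 and LTBP4, beside 11.4% and 12.0% of all genes tested. Of the other receptors, 6 were tested, 2 rose and 1 fell, beside 18.7% and 6.93% of all genes tested. BAMBI, a pseudoreceptor that inhibits the pathway, rose from 8.47 ± 0.499 to 12.1 ± 0.636 FPKM. ACVR1B, the activin type I receptor ALK4, fell from 9.90 ± 0.471 to 8.38 ± 0.450 FPKM. BMPR2, the BMP type II receptor, rose with a log2 fold change of 0.25 and an adjusted p of 0.0314, which was 0.0816 under median-of-ratios scaling (limma with Benjamini-Hochberg adjustment). SMAD5, a SMAD of the BMP branch, was the 1 of 3 other SMADs that rose, beside 18.7% of all genes tested (log2 fold change 0.15, adjusted p = 0.0478 by limma with Benjamini-Hochberg adjustment).

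Among 19 tested SMAD partners and regulators, 5 rose and 0 fell by limma. An unadjusted p under 0.05 was found for 6 of the 19, beside 4073 of the 10439 genes tested. The share called in either direction, 26.3%, was near the 25.7% of all genes tested. SKIL and TGIF1 are repressors of SMAD-driven transcription, with log2 fold changes of 0.22 and 0.19. STRAP, which stabilizes SMAD7 at the receptor, had 0.20, the coactivator gene CREBBP had 0.22, and PMEPA1, a target that sequesters receptor SMADs, had 0.28. Under median-of-ratios scaling 3 rose and 1 fell in this list, beside 11.4% and 12.0% of all genes tested.

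The direction of the target genes was mixed. Of 24 tested TGF-beta target genes, 8 rose and 8 fell, beside 18.7% and 6.93% of all genes tested, with a median log2 fold change of 0.013. Under median-of-ratios scaling 6 rose and 9 fell, beside 11.4% and 12.0%. SNAI2, a transcription factor of epithelial–mesenchymal transition, rose from 11.7 ± 0.340 to 14.4 ± 0.667 FPKM, whereas its relative SNAI1 fell from 22.2 ± 0.471 to 20.2 ± 0.565 FPKM. JUNB, an AP-1 subunit, fell from 666 ± 17.3 to 480 ± 11.9 FPKM, the largest decrease on the list. TGFBI, a matrix protein named for its induction by TGF-beta, fell from 728 ± 22.7 to 657 ± 8.41 FPKM, and CTGF, a matricellular growth factor, from 235 ± 2.93 to 210 ± 5.25 FPKM. The cytokine IL11 and the lipase inhibitor ANGPTL4 passed a fold change of 2 (log2 1.01 and 1.02), and both were known to be higher when the list was written. Without IL11 and ANGPTL4, 6 of 22 rose and 8 fell, beside 18.7% and 6.93% of all genes tested, and the median was -0.019. No gene that fell was taken out, so that this median leans downward by construction. Of 5 BMP target genes tested, ID1 and ID3, inhibitors of basic helix-loop-helix factors, fell (log2 -0.30 and -0.36) and HEY1 rose (0.54). Of all genes tested, 6.93% fell and 18.7% rose.

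**Figure D4:**
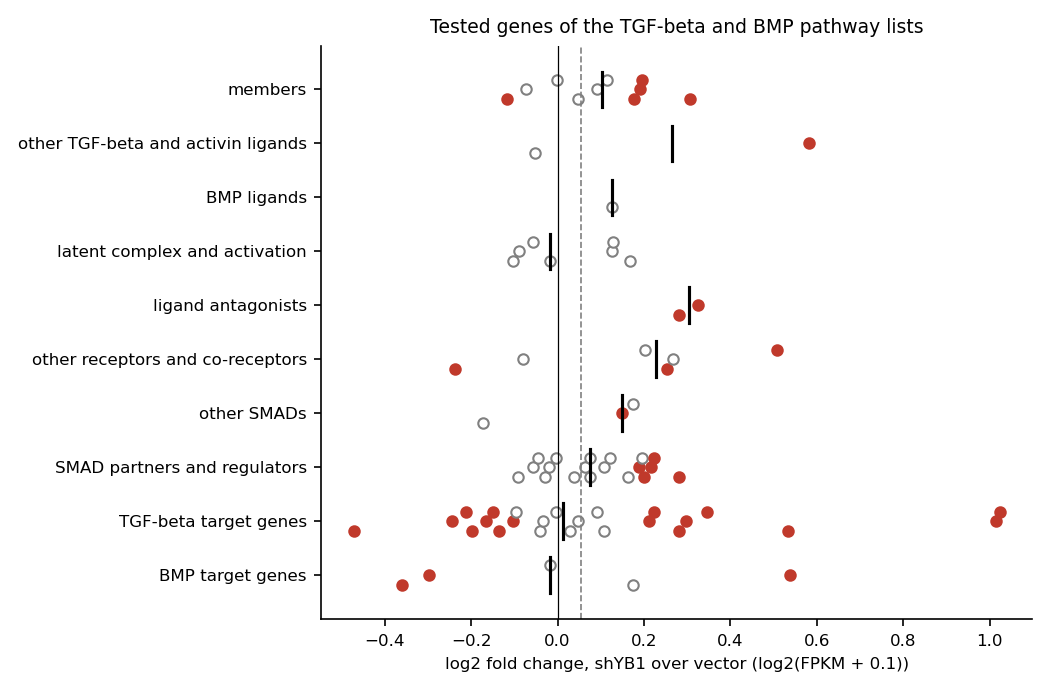
Log2 fold change, shYB1 over vector on log2(FPKM + 0.1), of the tested genes among the 10 members and the 9 pathway lists; red points have an adjusted p under 0.05, vertical bars give the median of each list and the dashed line that of all genes tested. The points of the TGF-beta target genes lie on both sides of 0, with 8 red points on each.

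The annotation deposited with the values assigns 84 genes to the KEGG TGF-beta signaling pathway, among them 9 of the 10 members (not TGFBR3). Of its 56 tested genes, 16 rose and 6 fell, beside 18.7% and 6.93% of all genes tested, with a median of 0.071 beside 0.055. Under median-of-ratios scaling 9 rose and 8 fell, beside 11.4% and 12.0%. INHBA was the fourth of the genes that rose, ordered by log2 fold change, after INHBB, BAMBI and the cell cycle repressor E2F4 (0.32), and before NOG. The most negative were the cytokine TNF (-0.67), ID3, the kinase gene MAPK3 (-0.36), ID1 and ACVR1B.

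The genes whose levels followed TGFB2 most closely over the 6 libraries, among 10438 compared, were CAMK1D (Pearson r = 0.999), ITPR3 (0.998), GPBP1L1 (0.997), CCND1 (0.996) and HBEGF (0.995). The 6 points share the split between the groups, and 1184 genes had an r over 0.9.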

How the data were processed

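RNA of 6 libraries of 786-O cells was sequenced. The authors deposited FPKM per gene, and their processing notes name GRCh38, Trimmomatic, HISAT2, Cufflinks, HTSeq and DESeq without roles or versions. The methods select genes on a fold change of 2 and P under 0.05. GO and KEGG terms were deposited alongside, and 0 columns of per-library values were left out. Depth is unknown, so that precision was read from the spread of 3 libraries a group.

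From the deposited values, log2(FPKM + 0.1) was taken for 10439 genes averaging 1 FPKM or more, and the groups were tested two-sided in limma 3.58.1 under R 4.3.3 (lmFit, then eBayes with trend and robust variance prior). P-values were adjusted over these genes by Benjamini-Hochberg. Ratios were compared with exact permutation tests (Python 3.11.15, SciPy 1.17.1). The fit was checked on simulated data. Figures were drawn with matplotlib 3.10.9.

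The members and lists were chosen with earlier results of these data known. Named were all members, YBX1, listed genes with an adjusted p under 0.05, at most 3 abundant others a list, the 5 most positive and 5 most negative called KEGG genes, and the 5 genes most like the member with the smallest adjusted p. Results for some genes covered by this rule are not reported here. Alternatives were other pseudocounts, filters, scalings and variance priors, a replicate block and each library left out. Positions and shared 50-base words came from GENCODE 29, and start-site windows from RefSeq on GRCh38.p14.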

Additional observations from a re-analysis of the deposited data

How the results depend on the processing

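The knockdown of YBX1 kept its direction and call under all alternatives, with log2 fold changes of -1.16 to -1.13 when a library was left out. TGFB2 was the only member called under all 15. With no filter, median-of-ratios scaling or quantile normalization, 1 member rose in each case, and with a variance prior without trend 2 rose and 0 fell. With a library left out, 1 to 4 members rose and 0 to 1 fell, from fewer samples by construction. The sign turned for TGFBR2 under median-of-ratios scaling (-0.00854) and quantile normalization (-0.0128), for TGFBR3 without vector replicate 1 (-0.00623, of a range of -0.00623 to 0.194), for SMAD2 (-0.0326 to 0.0428 with a library left out) without vector replicate 2 (0.00751), vector replicate 3 (0.0102) or shYB1 replicate 1 (0.0428), and for the log2 ratio of TGFBR3 to TGFBR2 without vector replicate 1 (-0.0634, of a range of -0.0634 to 0.164). Left-out libraries gave log2 differences of 0.0469 to 0.124 for TGFB2 to TGFB1, 0.0829 to 0.176 for TGFBR2 to TGFBR1, -0.157 to -0.0911 for SMAD3 to SMAD2 and 0.262 to 0.343 for SMAD7 to SMAD3. The 66 pathway genes gave 7 to 10 lower and 12 to 17 higher with a library left out, the lowest count lower without shYB1 replicate 1. The KEGG pathway gave 3 to 6 lower and 9 to 13 higher with a library left out, 10 higher with no filter, and 9 higher under median-of-ratios scaling and under quantile normalization. Over all genes tested, 1192 rose and 1253 fell under median-of-ratios scaling and 1267 and 1184 under quantile normalization, against 1956 and 723 as reported, and 1323 to 1944 rose and 513 to 606 fell with a library left out. Apart from the smaller samples and gene sets, the cause was not tested.

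Same-numbered libraries did not deviate together from their group means (correlations -0.169, -0.0590 and -0.00824). The labels do not say whether the numbers pair the samples. These correlations cannot exclude a pairing, because the deviations of the 3 libraries of a group cancel out. With a replicate block 5 members rose, TGFB1 among them (adjusted p = 0.0275, limma with Benjamini-Hochberg adjustment), and 1 fell. INHBA, TGFBR1, TGFBR3 and SMAD2 have no value under the filter at 5 FPKM, and the ratio of INHBA to FST was not run. Depth is unknown, so that low members such as INHBA and TGFBR3 carry no counting interval.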

Other observations

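The KEGG TGF-beta signaling pathway also holds 27 genes that are in neither the members nor the lists by role, and 24 of these were tested. Of the 24, 5 rose and 2 fell by limma with Benjamini-Hochberg adjusted p under 0.05, near the 18.7% and 6.93% of all genes tested. Under median-of-ratios scaling 4 rose and 4 fell, beside 11.4% and 12.0% of all genes tested. The values are given as a description. The genes that rose were chosen for mention after their values were seen. E2F4 and TFDP1, partners in the complex that represses cell cycle genes, rose from 18.1 ± 1.36 to 22.5 ± 0.762 FPKM and from 36.2 ± 0.770 to 41.4 ± 0.791 FPKM. RHOA, a small GTPase of the actin cytoskeleton, rose from 159 ± 3.42 to 180.1 ± 3.82 FPKM. PPP2R1A and PPP2CA, the scaffold and catalytic subunits of protein phosphatase 2A, rose from 59.3 ± 2.02 to 66.2 ± 1.23 FPKM and from 28.7 ± 0.223 to 31.3 ± 1.24 FPKM. PPP2CA passed under 5 of 15 alternatives, and its adjusted p was 0.233 under median-of-ratios scaling (limma with Benjamini-Hochberg adjustment).

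The genes of this group that fell were TNF and MAPK3, the latter encoding the kinase ERK1. TNF was at 3.32, 5.55 and 4.68 FPKM in vector and 2.59, 2.69 and 2.93 FPKM in shYB1 libraries, a log2 fold change of -0.67 (SE 0.16, adjusted p = 0.0149, limma with Benjamini-Hochberg adjustment). Its vector libraries spread far more than its shYB1 libraries. MAPK3 fell from 26.2 ± 1.55 to 20.4 ± 0.722 FPKM, and its groups did not overlap.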
